A study of Mus musculus with 6 samples.

Results

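The 7 genes described here encode carriers that hepatocytes and their neighbours use to take bile acids and other organic ions out of the blood. They were chosen by name, as Slc10a1, Slco1a1, Slco1a4, Slco1b2, Slco2b1, Slco2a1 and Slc22a7, out of 23284 genes in the count files. Liver mRNA was sequenced from male FXR-floxed mice that were 8 weeks old when they received a mixture of AAV serotype 8 vectors, one with Cre recombinase and one with FXR, both driven by the hepatocyte-directed TBG promoter. The FXR vector carried FXR either as wild type (FXR-WT, 3 livers) or with the Y67F change, which replaces a tyrosine by phenylalanine (Y67F-FXR, 3 livers). Both groups thus carried Cre against the floxed mouse FXR gene, directed to hepatocytes and not to other liver cells or the gut, and both had 0.5% cholic acid chow for 6 h before the livers were taken, 4 weeks after the injection. The comparison asks whether an FXR that lacks this tyrosine, a site of phosphorylation, leaves the uptake carriers at other levels than the wild type does. A group with an unmodified or an FXR-deficient liver was not analysed here, so each value is Y67F-FXR against FXR-WT.

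Bile acids return from the gut in portal blood and enter hepatocytes through the sinusoidal membrane. The sodium-dependent carrier NTCP, encoded by Slc10a1, takes up mainly conjugated bile acids. Organic anion transporting polypeptides (OATP), encoded by Slco genes, work without sodium and also take up unconjugated bile acids, bilirubin, hormones and drugs. FXR is the nuclear receptor for bile acids. When active in hepatocytes it induces the repressor SHP (Nr0b2) and lowers bile acid synthesis and uptake.

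Carriers of the Slco1 family lie together in the genome. In mm9, the build of the count files, 6 Slco1 genes occupy 798564 bases of chromosome 6. Slco1b2 (chromosome 6, 141578039 to 141635156) is on the plus strand, and Slco1a4 (chromosome 6, 141753961 to 141804692) and Slco1a1 (chromosome 6, 141855802 to 141895483) follow on the minus strand. Slc10a1 is on chromosome 12 (82054172 to 82069066), Slco2b1 on chromosome 7 (106806314 to 106859850), Slco2a1 on chromosome 9 (102910819 to 102990179) and Slc22a7 on chromosome 17 (46569134 to 46575426). None of the 7 shared exon bases with another gene of the annotation. Of all 100-base windows of their GENCODE transcripts, 0.614% for Slco1a1 and 0.64% for Slco1a4 also occurred in a paralog, and 4.25% for Slco2b1 in the predicted gene Gm15635. Reads from such windows may have been left out of the counts.

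The promoters of Slc10a1, Slco1a1 and Slco1b2 are shown because the first 2 genes had the largest positive fitted changes of the 7 and Slco1b2, of similar abundance to Slc10a1 in FXR-WT livers, had a fitted change near 0. Each sequence is the 250 bases before the start of the transcript in RefSeq, build GRCm38.p6, on the strand of the gene. A window was found for 6 of the 7 genes. Slc10a1 had 2 windows and Slco2b1 had 3, and the one nearest the outermost start of the gene was used. The other windows of these genes are not described.
Slc10a1, chr12:80968706-80968955, minus strand: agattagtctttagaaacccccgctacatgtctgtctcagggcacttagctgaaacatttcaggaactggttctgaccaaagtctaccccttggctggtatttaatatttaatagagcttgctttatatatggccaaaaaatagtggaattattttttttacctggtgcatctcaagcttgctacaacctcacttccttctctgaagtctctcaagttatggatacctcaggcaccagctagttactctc
Slco1a1, chr6:141946963-141947212, minus strand: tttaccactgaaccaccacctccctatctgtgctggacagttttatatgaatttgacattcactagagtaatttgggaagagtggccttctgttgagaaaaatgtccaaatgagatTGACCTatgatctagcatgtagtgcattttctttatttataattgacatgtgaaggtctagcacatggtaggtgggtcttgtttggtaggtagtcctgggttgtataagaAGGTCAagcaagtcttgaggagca
Slco1b2, chr6:141629268-141629517, plus strand: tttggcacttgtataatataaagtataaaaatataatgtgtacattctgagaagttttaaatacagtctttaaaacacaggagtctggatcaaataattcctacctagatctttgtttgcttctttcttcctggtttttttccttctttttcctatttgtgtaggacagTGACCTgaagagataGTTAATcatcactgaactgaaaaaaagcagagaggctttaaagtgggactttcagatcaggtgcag
Capitals mark the letters AGGTCA, a half-site that many nuclear receptors bind, and GTTAAT, a half-site of the hepatocyte factor HNF1, each searched on both strands (TGACCT and ATTAAC). The receptor half-site began 134 and 24 bases before the start of Slco1a1 and 81 bases before that of Slco1b2. The HNF1 half-site was 66 bases before the start of Slco1b2, and the capitals in these windows do not overlap. Of 32851 promoter windows of this length, 14% held the receptor half-site and 6.43% the HNF1 half-site. The inverted repeat AGGTCANTGACCT, the classical FXR element, was in 2 of the 32851 windows and in none of the 6. These matches describe letters in a short window only.

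Library totals ranged from 19551113 to 22053320 reads, and the 7 genes took from 0.126% to 0.239% of them. All 7 passed the filter on low counts and were tested among 12453 genes with the quasi-likelihood F test of edgeR, whose p-values were adjusted over all tested genes by the Benjamini-Hochberg method. A gene is said to be called where that adjusted p was below 0.05 and the fitted change exceeded 1.5-fold. Levels are given in CPM, the read count of a gene relative to the library size after TMM scaling. Hepatocyte markers were abundant in each library, with Alb at 67590 to 76490 CPM. In whole liver, fewer cells of a type and less RNA per cell cannot be told apart. The labels do not name the animals. The p-values set a difference between the groups against the spread between these 6 livers. For edgeR, that spread is moderated by the spread of all tested genes.

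Slc10a1, the main bile acid importer, had 429, 647 and 573 CPM in FXR-WT replicates 1 to 3 and 989.8, 853 and 975 CPM in Y67F-FXR replicates 1 to 3. The 3 Y67F-FXR livers all lay above the 3 FXR-WT livers, and FXR-WT replicate 1 was the lowest. The means were 549.5 ± 111 CPM (SD, n = 3) and 939 ± 74.8 CPM (SD, n = 3). The fitted fold was 1.71 (95% interval 1.30 to 2.24), or 0.77 on the log2 scale with a standard error of 0.170, and edgeR gave an adjusted p of 0.0968. It was thus not called at an adjusted p under 0.05, and its unadjusted p of 0.00193 in the same edgeR fit ranked 248 of 12453. With DESeq2 the adjusted p was 0.00213, and with edgeR's likelihood ratio test 0.00675.

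Slco1a1 encodes an OATP with a broad range of substrates that is known to be higher in male than in female liver. Its level was 79.2, 125 and 165 CPM in FXR-WT replicates 1 to 3, and 239.7, 233 and 198 CPM in Y67F-FXR replicates 1 to 3. The groups did not overlap, and the FXR-WT livers alone spanned a 2.08-fold range. The means were 123 ± 42.9 CPM (SD, n = 3) and 224 ± 22.6 CPM (SD, n = 3), and the fitted fold was 1.82 (95% interval 1.22 to 2.69). On the log2 scale this was 0.86 with a standard error of 0.247, and the edgeR adjusted p was 0.170. No other carrier had a larger fitted change in either direction. The adjusted p was 0.0305 with DESeq2 and 0.0389 with edgeR's likelihood ratio test.

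Slco1a4, an OATP induced by the xenobiotic receptors PXR and CAR, had 58.4, 91.6 and 47.8 CPM in FXR-WT and 94.6, 94.7 and 67.5 CPM in Y67F-FXR livers. FXR-WT replicate 2 lay above Y67F-FXR replicate 3, so the groups overlapped. The fitted fold was 1.30 (95% interval 0.869 to 1.94), with an edgeR adjusted p of 0.606. Fits that omitted 1 liver gave log2 fold changes from 0.19 without FXR-WT replicate 3 to 0.69 without FXR-WT replicate 2.

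Slco1b2 encodes the liver-specific OATP that takes up unconjugated bile acids and bilirubin. It had 453, 642 and 719 CPM in FXR-WT and 731, 573 and 574 CPM in Y67F-FXR livers. The highest Y67F-FXR liver and the highest FXR-WT liver were close to each other, and FXR-WT replicate 1 was again lowest. The means were 605 ± 137 CPM (SD, n = 3) and 626 ± 91.3 CPM (SD, n = 3), and the fitted fold of 1.04 had a 95% interval from 0.759 to 1.41. Its sign changed with library totals as scaling, and without FXR-WT replicate 1 or Y67F-FXR replicate 1. The interval leaves out the 1.5-fold minimum in both directions.

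Slco2b1, an OATP of hepatocytes and other cells, had 142, 185 and 197 CPM in FXR-WT and 197, 146 and 176 CPM in Y67F-FXR livers. The fitted fold was 0.99 (95% interval 0.756 to 1.30). Slco2a1 encodes the prostaglandin transporter, which is known from endothelium. It had 85.7, 62.5 and 72.4 CPM in FXR-WT and 80.3, 73.8 and 72.0 CPM in Y67F-FXR livers, with a fitted fold of 1.02 (95% interval 0.816 to 1.29). For both genes the groups overlapped, the sign of the log2 fold change differed between alternatives, and the interval lay within 1.5-fold. The 10 sinusoidal endothelial markers summed to 287 to 320.4 CPM in FXR-WT and 305 to 315 CPM in Y67F-FXR livers.

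Slc22a7 encodes OAT2, an organic anion carrier of the SLC22 family. It was the least abundant of the 7 and the most variable, with 8.55, 13.9 and 21.3 CPM in FXR-WT and 6.56, 8.62 and 15.3 CPM in Y67F-FXR livers. The ranges overlapped, and replicate 3 was the highest in each group. The fitted fold was 0.698 (95% interval 0.374 to 1.30), with an edgeR adjusted p of 0.656. The log2 fold change of -0.52 became -0.14 without FXR-WT replicate 3 and -0.94 without Y67F-FXR replicate 3. Its read counts ran from 135 to 493. Were all reads independent, the lowest would have a counting error of 8.61%, beside coefficients of variation of 43.9% and 45.1% within the groups. Mates of a pair were counted as separate reads, so the error can be larger.

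**Figure D1:**
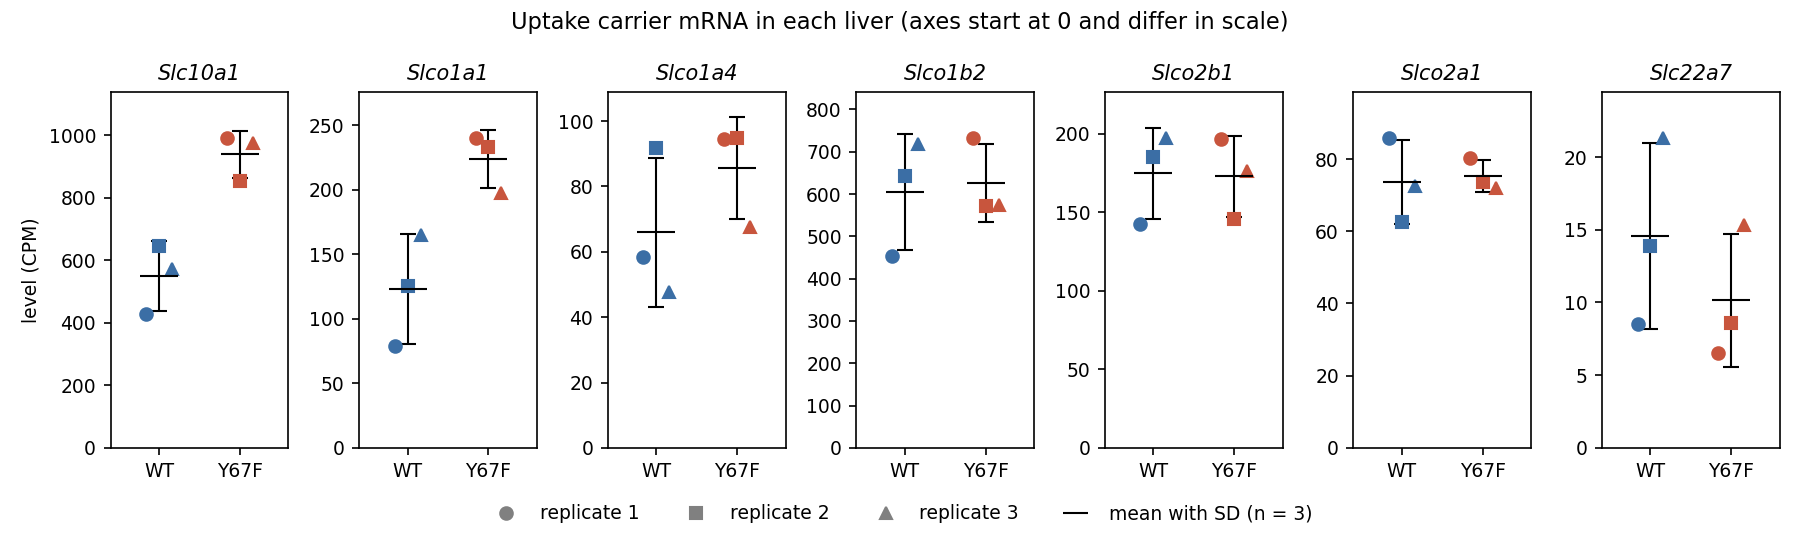
Level in CPM (vertical axis, from 0, with its own scale for each gene) of the 7 carriers in each FXR-WT (blue) and Y67F-FXR (red) liver. Bars give the mean and SD of 3 livers. The groups are apart for Slc10a1 and Slco1a1 and overlap for the other 5 genes.

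Across the 7 genes, edgeR called 0 higher and 0 lower by this rule, where 0.972% of all tested genes were called (0.546% higher and 0.426% lower). At an unadjusted p under 0.05, 2 of the 7 were higher and 0 lower, against 13.4% of all tested genes in either direction, 6.75% higher and 6.67% lower. With the fold minimum added to the unadjusted p, 2 were again higher, against 3.07% of all tested genes. The same 2 genes, Slc10a1 and Slco1a1, were the ones without overlap between the groups, which held for 20.6% of all tested genes and, with Y67F-FXR higher, for 10.2%. DESeq2 and edgeR's likelihood ratio test each called these 2 genes higher, where they called 1.72% and 1.77% of all tested genes higher. Of the 7, 5 were fitted higher and 2 lower, beside 52% and 48% of all tested genes, although the signs of Slco1b2 and Slco2a1 turned with library totals. The median log2 fold change of the 7 was 0.05, beside 0.01 over all tested genes.

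**Figure D2:**
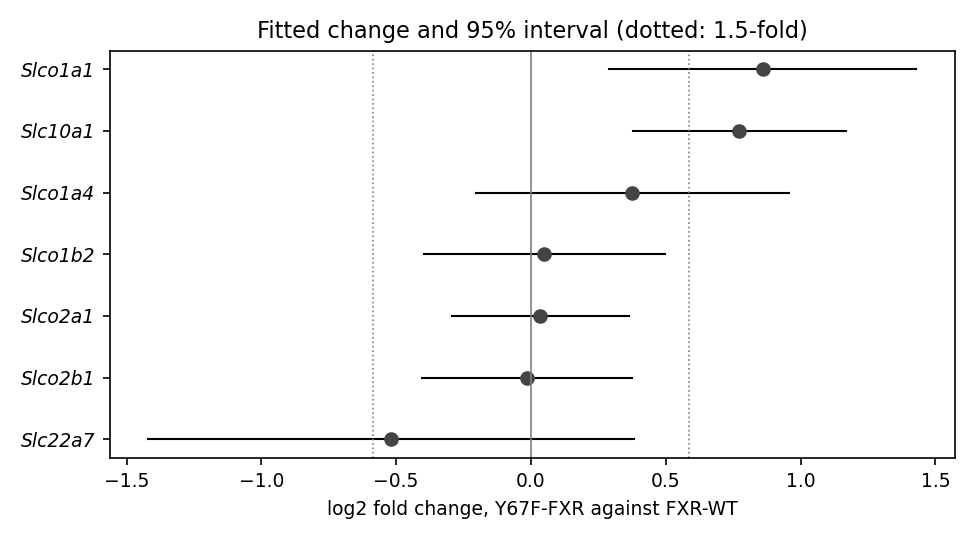
Fitted log2 fold change of Y67F-FXR against FXR-WT (horizontal axis) for each carrier, with its 95% interval as a line and 1.5-fold as dotted lines. The intervals of Slco1a1 (0.29 to 1.43) and Slc10a1 (0.38 to 1.17) lie above 0, and those of the other 5 genes include 0.

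The spread between livers of one group is given next for each carrier, with no test between carriers. The SD within groups was 0.23 on the log2 CPM scale for Slc10a1, above that of 51.1% of genes whose mean reached 1 CPM. It was 0.39 for both Slco1a1 and Slco1a4 (82.2% and 82.3% of genes had less) and 0.64 for Slc22a7 (96.4%). Slco2a1 had the smallest, at 0.17 (33.2%). With the moderated spread of the edgeR fit, Slc22a7 would have needed a log2 fold change of 0.90 for an unadjusted p of 0.05, and Slc10a1 of 0.39. The coefficient of variation was smaller among the Y67F-FXR livers for 6 of the 7 genes, such as 7.97% against 20.2% for Slc10a1 and 10.1% against 34.9% for Slco1a1. This difference in spread was not tested.

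FXR-WT replicate 1 had the lowest level of the FXR-WT livers for 5 of the 7 genes, Slc10a1, Slco1a1, Slco1b2, Slco2b1 and Slc22a7. It had the highest level of the 6 livers for Slco2a1. Without this liver the log2 fold change was 0.62 for both Slc10a1 and Slco1a1, with edgeR adjusted p of 0.123 and 0.224. Over the 6 fits with 1 liver left out, it ranged from 0.62 to 0.91 for Slc10a1 and from 0.62 to 1.13 for Slco1a1. The highest value was that without FXR-WT replicate 2 for Slc10a1 and without FXR-WT replicate 3 for Slco1a1.

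Ratios between 2 carriers in the same library do not depend on scaling between libraries. Slco1b2 was taken as the denominator with earlier results of these data known, so the ratios describe the same difference on another scale and are not independent evidence of it. The log2 ratio of Slc10a1 to Slco1b2 counts was -0.08, 0.01 and -0.33 in FXR-WT and 0.44, 0.57 and 0.76 in Y67F-FXR livers. In each Y67F-FXR liver Slc10a1 had more reads than Slco1b2, and the groups were apart by 0.72 on the log2 scale, a 1.65-fold difference. The log2 ratio of Slco1a1 to Slco1b2 was -2.52, -2.36 and -2.12 in FXR-WT and -1.61, -1.30 and -1.54 in Y67F-FXR livers, a 1.80-fold difference without overlap. For both ratios an exact two-sided permutation test gave p = 0.1, the smallest p that 3 livers against 3 allow. With each liver left out, the difference stayed between 0.63 and 0.80 for Slc10a1 and between 0.76 and 0.96 for Slco1a1.
The ratios of Slco1a4 and Slc22a7 to Slco1b2 overlapped between the groups. Their differences were 0.35 and -0.58 on the log2 scale, with p = 0.5 and p = 0.3 from exact two-sided permutation tests. Without FXR-WT replicate 3, the difference for Slco1a4 was 0.0033. That for Slc22a7 ran from -0.97 without Y67F-FXR replicate 3 to -0.19 without Y67F-FXR replicate 1.

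**Figure D3:**
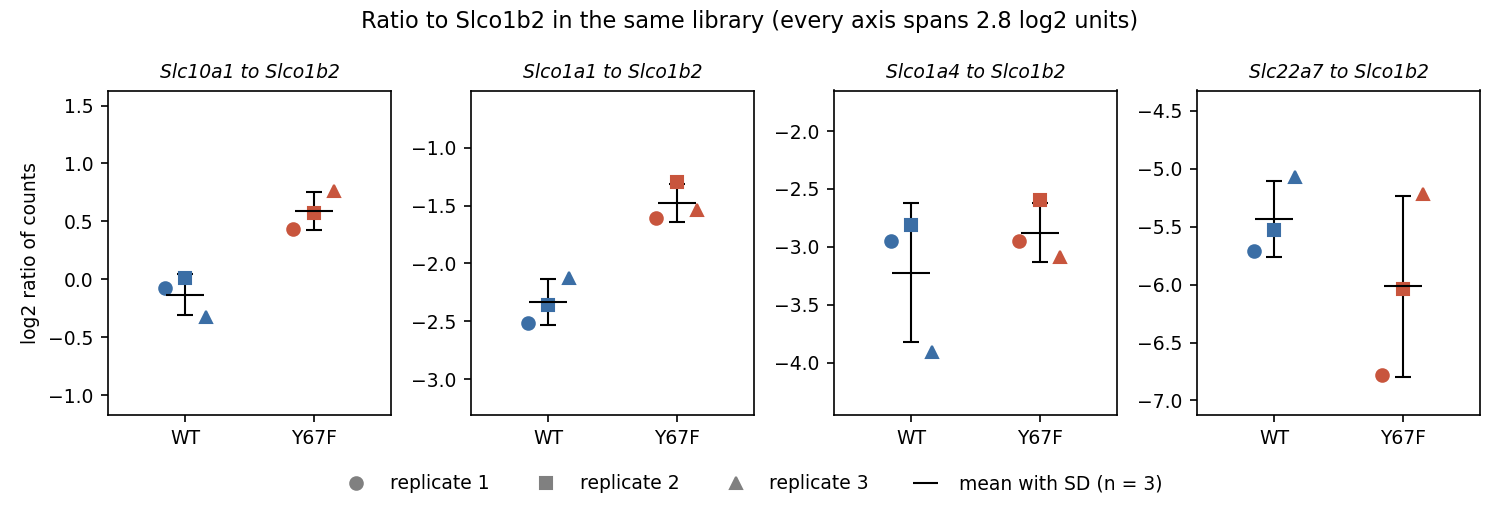
Log2 ratio of the counts of Slc10a1, Slco1a1, Slco1a4 and Slc22a7 to those of Slco1b2 in the same library (vertical axes, all of the same length), for FXR-WT (blue) and Y67F-FXR (red) livers, with the mean and SD of 3. The groups are apart for Slc10a1 and Slco1a1 and overlap for Slco1a4 and Slc22a7.

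To compare levels between genes, counts were divided by the exon length of each gene, which gives CPM per kb. On this scale Slc10a1 was the most abundant carrier in both groups, with 261 ± 52.8 CPM per kb (SD, n = 3) in FXR-WT and 447 ± 35.6 CPM per kb (SD, n = 3) in Y67F-FXR livers. Slco1b2 came second, with 184 ± 41.6 and 189.9 ± 27.7 CPM per kb (SD, n = 3 each). In FXR-WT the ranges of these 2 genes overlapped, although Slc10a1 was above Slco1b2 in each of the 3 livers. In Y67F-FXR livers they did not overlap, and the ratio of means was 2.35 in place of 1.42.
Next in level in FXR-WT livers came Slco2b1 (35.0 CPM per kb), Slco1a1 (31.0), Slco2a1 (18.2) and Slco1a4 (17.3), where each neighbour in this order overlapped the next. In Y67F-FXR livers Slco1a1 (56.3 CPM per kb) stood above Slco2b1 (34.7) in all 3 livers without overlap, and Slco1a4 (22.4) and Slco2a1 (18.7) overlapped. Slc22a7 was lowest in both groups, at 7.26 and 5.06 CPM per kb, below the range of its neighbour.

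The sum over the 7 genes was 431, 618 and 613 CPM per kb in FXR-WT and 841, 715 and 766 CPM per kb in Y67F-FXR livers. Slc10a1 made up 47.4%, 49.8% and 44.5% of this sum in FXR-WT and 56.0%, 56.8% and 60.5% in Y67F-FXR livers. The share of Slco1b2 was 31.9%, 31.5% and 35.6% against 26.4%, 24.3% and 22.7%. The shares of these 2 genes did not overlap between the groups, and their means differed by 10.5 and -8.54 percentage points. That of Slco2b1 also did not overlap, with 6.35% ± 0.319 (SD, n = 3) against 4.46% ± 0.332 (SD, n = 3). For each of these 3 shares an exact two-sided permutation test gave p = 0.1, the smallest possible. Shares add up to a fixed total, so a larger share of one carrier lowers those of the others. The share of Slco1a1 was 5.51% ± 1.13 (SD, n = 3) and 7.30% ± 0.862 (SD, n = 3), with overlap, and the means differed by 1.79 points (p = 0.2, exact permutation test). With shares of CPM not divided by length, its groups did not overlap and the difference was 2.98 points (p = 0.1, exact permutation test).

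**Figure D4:**
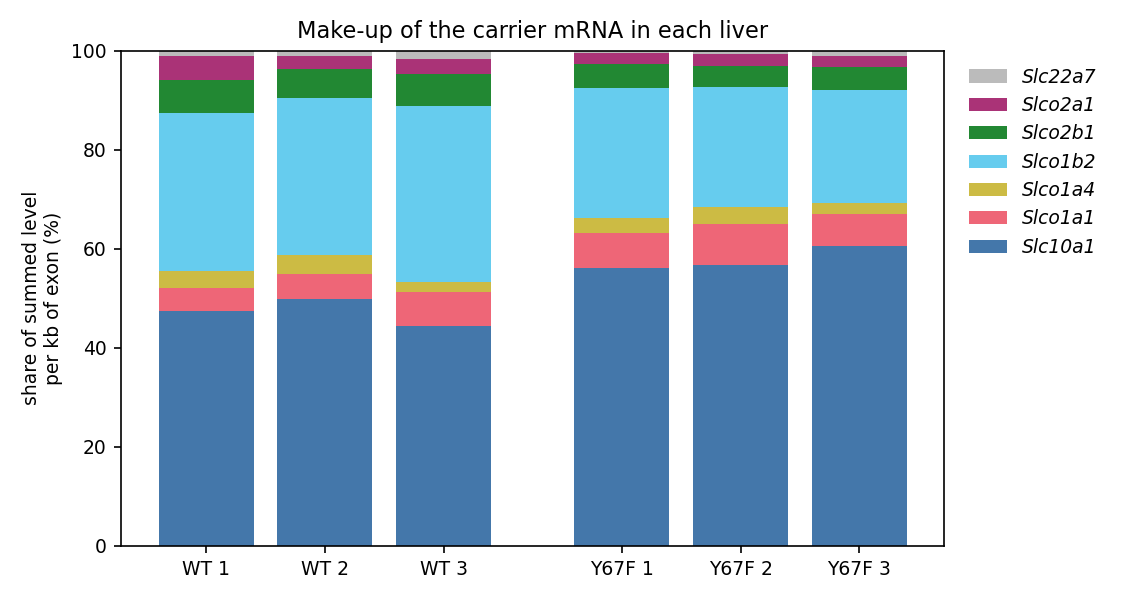
Share of each carrier in the level summed over the 7 genes, in percent per kb of exon (vertical axis), for each of the 6 livers. The lowest segment, Slc10a1, takes 44.5% to 49.8% in FXR-WT and 56.0% to 60.5% in Y67F-FXR livers.

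Each gene's log2 CPM was centred on its mean over the 6 livers, and the distance between a pair of genes is the root mean square difference of these values. Of the 21 pairs of carriers, Slco1b2 and Slco2b1 were closest (0.107), and Slc10a1 and Slco1a1 came next (0.247). Slco1a4 and Slc22a7 were farthest apart (0.867). Slco1a4 was farther from its neighbour in the genome, Slco1a1 (0.520), than from Slc10a1 (0.369), which is on another chromosome.
Among 7172 other genes whose mean reached 10 CPM, the closest to Slc10a1 were Slc45a3 (distance 0.0669), a solute carrier, and Adcy6 (0.0930), an adenylyl cyclase. Closest to Slco1a1 were Tymp (0.157), thymidine phosphorylase, and Zfp36l2 (0.158), an RNA-binding protein of mRNA decay. For Slco1a4 they were Cyp3a11 (0.174), a drug-metabolizing cytochrome P450, and 4833442J19Rik (0.188). Slco1b2 was nearest to Sfmbt1 (0.0366) and Cep120 (0.0488), Slco2b1 to Dpp4 (0.0299), a dipeptidyl peptidase, and R3hdm2 (0.0313), and Slco2a1 to Ets2 (0.0303), a transcription factor, and Cog3 (0.0436). The nearest to Slc22a7 were Aqp8 (0.240), an aquaporin, and C730036E19Rik (0.264). These distances rest on 6 livers and describe them only.

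Of 16 other genes of the SLCO and SLC10 families, 10 had too few reads to be tested, among them Slco1a5 and Slco1a6 of the chromosome 6 cluster, with at most 1 read in any library. Of the 6 tested, 2 were fitted higher and 4 lower, and 0 were called by edgeR (1 at an unadjusted p under 0.05, a share near the 13.4% of all tested genes). That one was Slc10a2, the apical sodium-dependent bile acid transporter, which in liver marks cholangiocytes. It stood at 3.03 ± 0.728 CPM in the FXR-WT group against 1.41 ± 0.176 CPM in the Y67F-FXR group, each with its SD over 3 livers, and edgeR gave a log2 fold change of -1.09 with an adjusted p of 0.113. The cholangiocyte markers summed to 46.1 to 71.1 CPM in FXR-WT and 54.1 to 60.6 CPM in Y67F-FXR livers, and 0 of 5 tested were called or had an unadjusted p under 0.05. Slc10a6, at under 1 CPM, had a log2 fold change of 0.70 and an adjusted p of 0.607 in edgeR.
Of 14 tested carriers for other organic ions (SLC22 and SLC47 families), 8 were fitted higher and 6 lower, and the median log2 fold change was 0.08. Of these, edgeR called 0. At an unadjusted p under 0.05, 2 were higher and 3 lower, beside 6.75% and 6.67% of all tested genes. The smallest p-values were those of 2 members of the organic anion branch, Slc22a28 (log2 fold change -1.49) and Slc22a30 (-1.02), with edgeR adjusted p of 0.0541 and 0.0721.

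Bile acids and other lipids leave hepatocytes through export pumps, and their genes stand beside the uptake side here. Of 11 tested exporter genes, 3 were fitted higher and 8 lower, the median being a log2 fold change of -0.39, and 2 fell past the threshold by edgeR, where 0.426% of all tested genes did. These were Abcg5 (log2 fold change -1.22, adjusted p = 0.0175) and Abcg8 (-1.22, adjusted p = 0.0176, both from edgeR), which together form the canalicular sterol exporter. Abcb11, the bile salt export pump, stood at 247 ± 38.4 CPM in the FXR-WT group against 137 ± 17.5 CPM in the Y67F-FXR group (SD, n = 3 each). Its log2 fold change of -0.85 had an edgeR adjusted p of 0.0612, so Abcb11 was not called. Both calls were lost without FXR-WT replicate 3 (adjusted p of 0.0614 for Abcg5 and 0.0716 for Abcg8 in edgeR) and without Y67F-FXR replicate 3 (0.0817 for each). Groups did not overlap for 6 of the 11 genes with Y67F-FXR lower and 2 with it higher, beside 10.5% and 10.2% of all tested genes.

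Of 23 tested nuclear receptors and other factors known to act on uptake carriers, 15 were fitted higher and 8 lower, the median being a log2 fold change of 0.10. By edgeR's quasi-likelihood test 0 were called, and 1 higher and 2 lower of the 23 had an unadjusted p under 0.05, a share near the 13.4% of all tested genes at this cut. Nr0b2, which encodes SHP, stood at 68.4 ± 11.9 CPM in the FXR-WT group against 13.3 ± 10.9 CPM in the Y67F-FXR group (SD, n = 3 each). Nr1h4, the FXR gene, had 186 ± 30.2 and 175 ± 9.84 CPM (SD, n = 3 each), and these counts cannot separate mouse FXR from any transgene reads that were placed there. Ppara, the fatty acid receptor, had a log2 fold change of 0.58 and an edgeR adjusted p of 0.255.
Slco1a4 is a textbook target of PXR and CAR, so other targets were counted. Of 12 tested, 9 were fitted higher and 3 lower (median log2 fold change 0.22), and 2 rose past the threshold by edgeR, where 0.546% of all tested genes did. These were Por (log2 fold change 1.20, adjusted p = 0.0243), which supplies electrons to cytochromes P450, and Alas1 (0.84, adjusted p = 0.0333, both from edgeR), the first enzyme of haem synthesis. The call of Alas1 was lost in each of the 6 fits that left out 1 liver. That of Por was lost without FXR-WT replicates 1 or 3 and without Y67F-FXR replicates 2 or 3, where edgeR's adjusted p for Por was 0.0604, 0.105, 0.0507 and 0.107.
Slco1a1 is male-biased. Of 14 other male-biased genes tested, 5 were fitted higher and 9 lower (median log2 fold change -0.42), with 1 called higher, Elovl3 (1.58), a fatty acid elongase, and 3 called lower, Selenbp2 (-2.88), Hsd3b5 (-4.47) and Nudt7 (-1.38), by edgeR. Of all tested genes, 0.972% were called in either direction. With 1 liver left out, Selenbp2 and Hsd3b5 were called in each of 6 fits, Nudt7 in all but that without FXR-WT replicate 3 (adjusted p of 0.0614 in edgeR), and Elovl3 only in that without FXR-WT replicate 1. Of 8 tested female-biased genes, 3 were fitted higher and 5 lower (median -0.29) and 0 were called by the same test. At an unadjusted p under 0.05, 1 of the 8 was higher and 2 were lower, where 6.75% and 6.67% of all tested genes were. Their smallest p-values were those of Acot3 (log2 fold change 2.08) and Cux2 (-1.92), with edgeR adjusted p of 0.0909 and 0.215.
Of 10 tested genes for proteins that hold carriers at the membrane or process bile acids once inside, 3 were fitted higher and 7 lower (median -0.08), and 0 were called by edgeR (0 higher and 2 lower at an unadjusted p under 0.05, beside 6.75% and 6.67% of all tested genes). These 2 were Slc9a3r1, a PDZ scaffold (log2 fold change -0.49), and Msn, moesin (-0.33), with edgeR adjusted p of 0.113 and 0.319.

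Markers of liver cells were set beside these values. The 6 hepatocyte markers summed to 95270 to 110700 CPM in FXR-WT and 93830 to 116800 CPM in Y67F-FXR livers, all 6 were fitted higher, and 0 were called or had an unadjusted p under 0.05 in edgeR, with Cps1 (log2 fold change 0.46) and Tat (0.39) first. The 10 endothelial markers had their median at 0.01 on the log2 scale, with Lyve1 (-0.89) and Dnase1l3 (0.32) at an unadjusted p under 0.05. The 8 Kupffer cell and leukocyte markers summed to 148 to 212 CPM in FXR-WT and 121 to 325 CPM in Y67F-FXR livers (median log2 fold change 0.04), where Marco (1.63) and Cd5l (0.37) had the smallest p-values and 0 had an unadjusted p under 0.05. Marco ranged from 6.85 to 62.2 CPM among the 3 Y67F-FXR livers, with a mean of 28.5 ± 29.6 CPM (SD, n = 3). The 7 stellate cell markers summed to 199.8 to 207 CPM and 146 to 205 CPM (median -0.16), with Lrat (-1.15) and Col1a1 (-0.77) lower at an unadjusted p under 0.05. For both the endothelial and the stellate list, the share of all tested genes at this cut was 13.4% (6.75% higher and 6.67% lower). The 5 tested cholangiocyte markers had a median of 0.05, with Krt19 (-0.80) and Krt7 (0.36) first. None of the 36 tested markers was called by edgeR. Cftr of the cholangiocyte list, with at most 5 reads in any library, was at 0 in the 3 Y67F-FXR libraries. No other marker was at 0 in any library.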

How the data were processed

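Whole-liver RNA was sequenced as paired-end reads of 100 bases, with 1 library from each of 6 livers (3 per group). Per the file headers and the submitters' processing notes, the authors trimmed reads with Trimmomatic 0.36, aligned them to mm9 with STAR 2.5.3a (the study's methods name another STAR version), and obtained gene counts from UCSC models by featureCounts 1.4.6-p4. The deposited counts were not normalized. Counting ignored strand, took each mate as a read of its own and skipped reads that matched several places or genes. The authors' table of their own comparison, with fold changes, mean log2 CPM, p-values and false discovery rates, was not used.

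Counts were filtered with filterByExpr (12453 of 23284 genes), scaled by TMM factors and compared with glmQLFit and glmQLFTest of edgeR 4.0.16 (R 4.3.3, limma 3.58.1), without pairing. A call needed a p below 0.05 after Benjamini-Hochberg adjustment and a fitted change above 1.5-fold. Standard errors come from the F statistic and 2 was the prior count for log2 CPM and for log2 ratios of counts. DESeq2 1.42.0 was an alternative. Ratios and shares were tested with SciPy 1.17.1, and figures drawn with matplotlib 3.10.9 in Python 3.11.15. The lowest count of a carrier was 135 (Slc22a7), a counting error of 8.61% if reads are taken as independent. The error is larger where both mates of a pair were counted.

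All pairs of livers within a group differed by more than the counting noise of independent reads (median chi-square per gene from 2.23 to 8.10), and each was kept. The counting of each mate as a read of its own was not allowed for.

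The carriers, lists and rules were chosen with earlier results of these data known. Named besides the carriers are Nr1h4, Nr0b2, Abcb11, the called members and the 2 smallest p-values of each list, and the 2 genes nearest to each carrier. Slco1a5, Slco1a6, Alb and Cftr were named for their levels.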

Additional observations from a re-analysis of the deposited data

How the results depend on the processing

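Over 13 alternatives each, Slc10a1, Slco1a1, Slco1a4 and Slc22a7 kept the direction of their log2 fold change. With DESeq2, the log2 fold change was 0.78 for Slc10a1 and 0.87 for Slco1a1, and with edgeR's likelihood ratio test 0.77 and 0.86, and these 2 genes were then called. Thus 2 members were called higher in place of 0, as also at an unadjusted p under 0.05 with the fold minimum. Both tests called more genes overall (429 and 447 in place of 121). Values near 0 changed sign. With library totals, which moved the median of all genes by -0.0699, Slco1b2 was at -0.020 and Slco2a1 at -0.032. With each liver left out, Slco1b2 ranged from -0.13 to 0.19, Slco2b1 from -0.15 to 0.084, Slco2a1 from -0.069 to 0.15, and the difference in the share of Slco1a4 from -0.811 to 0.110 percentage points. With shares of CPM not divided by length, the difference was 2.98 points for Slco1a1 and -2.83 for Slco2b1, in place of 1.79 and -1.89. The log2 fold change of Slc22a7 ranged from -0.94 without Y67F-FXR replicate 3 to -0.14 without FXR-WT replicate 3.

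The labels do not say whether the replicate numbers pair the livers, and the main fit was unpaired. Deviations of same-numbered livers from their group means correlated at -0.517, -0.0804 and 0.121 over genes. Those of livers with different numbers correlated at -0.586 to 0.578, and not every liver correlated best with its own number. With 3 livers per group, whose deviations add up to 0, these correlations cannot decide whether livers were paired. With the replicate number as a block, the log2 fold change was 0.79 for Slc10a1 and 0.92 for Slco1a1 (edgeR adjusted p of 0.294 and 0.361), and 8 genes in all were called (2 higher and 6 lower), of which 0 higher and 2 lower were in the lists. With offsets for gene length, the adjusted p was 0.0558 for Slc10a1 and 0.0785 for Slco1a1 in edgeR's quasi-likelihood test.

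Of 132 tested genes of the other lists, 3 were called higher and 5 lower (68 and 53 of all 12453 tested genes). These counts were 7 and 14 with DESeq2 (all genes 214 and 215), 6 and 15 with the likelihood ratio test (221 and 226), 9 and 21 at an unadjusted p under 0.05 with the fold minimum (382 and 401), 4 and 12 with gene length offsets (121 each), and 4 and 11 without a filter (86 and 81). With each liver left out, 0 to 2 were higher and 2 to 6 lower. None was higher without FXR-WT replicate 3, Y67F-FXR replicate 2 or Y67F-FXR replicate 3, and 2 and 3 were lower without FXR-WT replicate 3 and Y67F-FXR replicate 3. Over all genes, calls numbered 242 with gene length offsets and 9 (without FXR-WT replicate 3) to 66 (without FXR-WT replicate 1) with 1 liver left out. The cause of these differences was not tested. Counting error is largest for Slc22a7, the carrier with the fewest reads, and 3 livers per group bound what the permutation tests can show.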
